A study of Homo sapiens with 6 samples.

Results

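The genes described here encode the enzymes that attach fucose, sialic acid, galactose, N-acetylglucosamine (GlcNAc) and N-acetylgalactosamine (GalNAc) to cell surface glycans, together with enzymes that supply sialic acid and glucosylceramide. The members were a list of 56 gene symbols, chosen with earlier results of these data known. All 56 were among the 56638 symbols of the count tables. They were read by class as 10 fucosyltransferases (FUT and POFUT genes), 11 sialyltransferases, 9 galactosyltransferases, 3 B3GNT genes, 6 MGAT genes, 9 GALNT genes, 4 genes of O-glycan cores, and UGCG, CMAS, GNE and NANS. RNA-seq counts came from HCT116, an established line of colorectal carcinoma, in 3 wild type (WT) and 3 METTL3 knock out (METTL3-KO) samples, all labelled passage 16-19 and with no further treatment. METTL3 is the catalytic subunit of the complex that writes N6-methyladenosine into mRNA. Per the labels and the study's methods, the knockout was made by lentiviral CRISPR-Cas9 with puromycin selection and 1 monoclonal line was used, so loss of METTL3 and traits of that clone cannot be told apart. The deposited tables themselves are marked NC and SiM3 in place of WT and METTL3-KO, abbreviations that no source used here explains for these samples. The study describes its RNA-seq as a comparison of METTL3-knockout with WT HCT116 cells. It checked the knockout by Western blot and by sequencing, which showed an insertion with a premature stop. Given the marks on the tables, it was not settled here whether these samples were that line or cells with METTL3 lowered in another way. METTL3-KO, or knockout, below means the samples with that label. No label says whether replicates were separate cultures, and p-values therefore measure only the spread between these samples.

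Glycans are built mainly in the Golgi by enzymes that each add a single sugar from an activated donor to a growing chain. N-glycans are trimmed and are branched by MGAT enzymes, mucin-type O-glycans are started by GALNT enzymes, and most glycolipids start from glucosylceramide. Galactosyltransferases and B3GNT enzymes lengthen these chains, and sialyltransferases and fucosyltransferases cap them. In colorectal epithelium the caps include the Lewis antigens and their sialylated forms, which serve as tumour markers.

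The guide RNA that the study's methods give for its knockout is shown because the labels define the contrast by METTL3 knockout. It is written in DNA letters, with the adjoining motif that Cas9 needs (the PAM) in capitals.
METTL3 guide: ggtgctgtggcagaaaagaaGGG
The guide matched the minus strand of GRCh37 at chr14:21971548-21971567, in exon 3 of the 11 exons of the canonical METTL3 transcript. METTL3 was at 30.6, 30.2 and 29.2 CPM (counts relative to the TMM-scaled library size) in WT and at 7.26, 7.69 and 6.89 CPM in METTL3-KO samples. Throughout, log2 gives the log2 fold change of METTL3-KO over WT ± its SE, and adjusted p is that of edgeR's quasi-likelihood test, corrected over every tested gene. METTL3 was lower in all METTL3-KO samples but still detected (log2 -2.04 ± 0.0906, adjusted p = 1.59e-07), and 17.4% of its exonic bases overlap TOX4 on the other strand.

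Counts on genes came to between 20936091 and 30142144 per sample. Replicate 3 differed from the others of its group in WT and in METTL3-KO cells, with a chi-square per gene of 8.32 to 23.1, where the other pairs had 2.34 and 2.58. Values without replicate 3 of both groups are therefore given where they change a call. In WT replicates 1 to 3 the deviation from the group mean correlated with transcript length at -0.602, -0.550 and 0.664 (Spearman). In METTL3-KO replicates 1 to 3 the values were 0.505, 0.418 and -0.604. Without replicate 3 of both groups, the remaining WT and METTL3-KO samples thus have opposite length trends. The part of length in the calls gained by that fit was not tested. Sums over cell type markers are given relative to library sizes without TMM scaling. All 8 intestinal epithelial markers were detected and summed to 5908 to 7116 CPM in WT and 8298 to 9095 CPM in METTL3-KO samples. KRT8 was the largest part, with a TMM-scaled mean of 4119 CPM in WT and 5290 CPM in METTL3-KO samples. Leukocyte markers summed to 8.55 to 9.5 CPM in WT and 8.66 to 12.9 CPM in METTL3-KO, fibroblast markers to 5.54 to 6.98 and 9.39 to 10.0 CPM, and endothelial markers to at most 0.185 CPM, with COL1A2, PECAM1 and KDR at 0 in every sample.

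More members were higher than lower in METTL3-KO cells. Of the 56 members, 55 passed the count minimum, and at an adjusted p under 0.05 there were 22 higher and 9 lower, together 56.4% of those tested. Among all 22452 tested genes 26.5% passed, 13.3% as higher and 13.2% as lower. Most members are well expressed, and this matters because counts set the power of the test. At or above a mean log2 CPM of 1, 39.5% of 12905 genes passed (19.2% higher, 20.2% lower), and 52 members reached that level and held all 31 calls. The median log2 fold change was 0.13 over tested members and -0.02 over all tested genes. WT and METTL3-KO samples did not overlap for 24 members on the higher and 10 on the lower side, where 20.2% and 20.7% of all tested genes did so (40.9% together). Only ST3GAL5 and C1GALT1C1 passed with a change of at least 2-fold, as did 5.24% of all tested genes. Without replicate 3 of both groups, 25 members were higher and 13 lower, and calls among all 21242 genes tested in that fit rose too, to 44.1% (21.4% higher, 22.7% lower). Leaving out the members with much overlapping or shared sequence, 20 of 49 were higher and 9 lower. As the list was drawn up with earlier results of these data known, its shares describe these genes only. Of 43 further transferases of the same classes, 24 were tested and 16.7% passed, with a median log2 fold change of -0.055. Many of these had few counts.

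**Figure D1:**
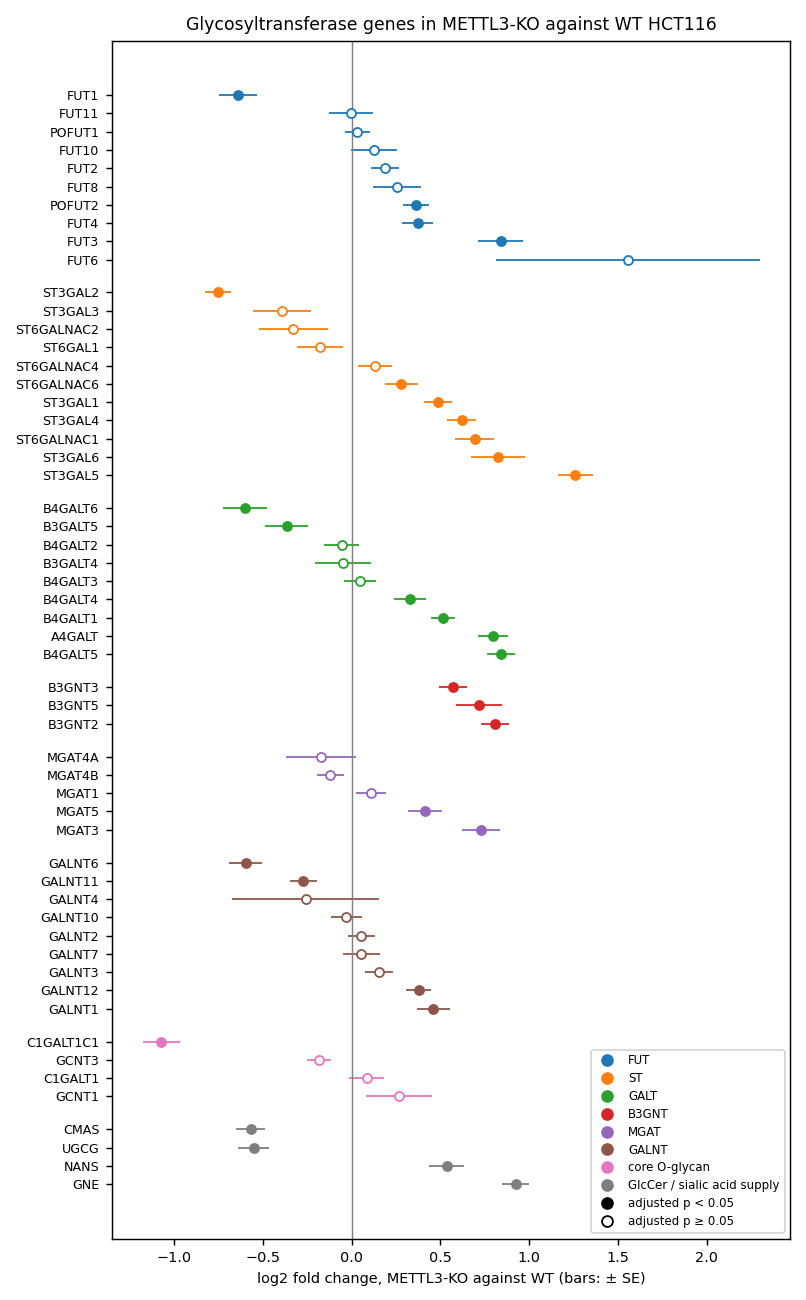
Log2 fold change of each tested member, METTL3-KO over WT, by class, with bars of 1 SE from edgeR's fit on 3 samples per group. Filled points passed at an adjusted p under 0.05, and they run from C1GALT1C1 at -1.07 to ST3GAL5 at 1.26, with all 3 B3GNT genes to the right of 0.

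**Figure D2:**
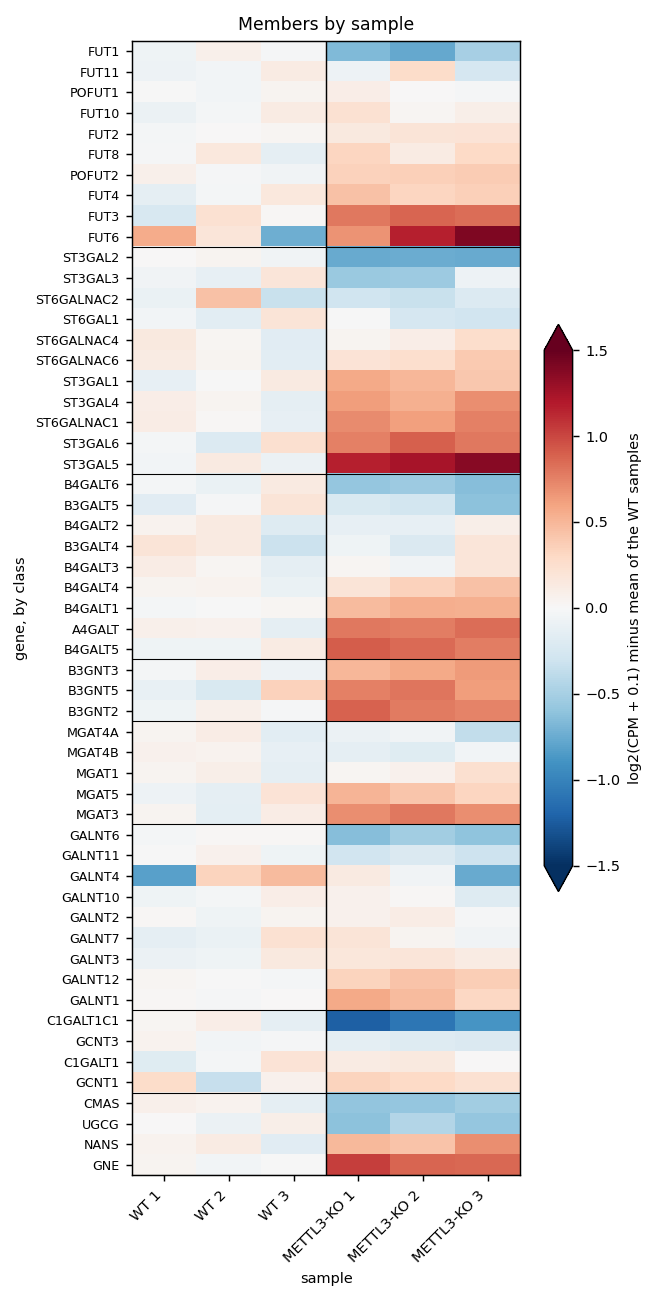
Heat map of the 55 tested members (rows, by class) in the 6 samples (columns), with the colour showing log2 expression relative to the mean of the WT samples. The METTL3-KO columns share 1 colour in the rows of ST3GAL5, GNE and B4GALT5 (higher) and of C1GALT1C1 and ST3GAL2 (lower), while FUT6 and GALNT4, which rest on few counts, vary between replicates.

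Sialic acid supply moved in both directions along its route. GNE makes and phosphorylates N-acetylmannosamine, the committed step. NANS turns this sugar into sialic acid phosphate, and CMAS activates sialic acid to the CMP-sugar that sialyltransferases use. GNE was at 66.7, 62.8 and 64.4 CPM in WT and at 132.2, 118.3 and 117.6 CPM in METTL3-KO samples. Every knockout value lay far above every WT value, and GNE was 1.9-fold higher (log2 0.92 ± 0.0758, adjusted p = 7.09e-06). NANS was at 58.8, 61.8 and 50.4 CPM in WT and 79.5, 76.3 and 92.2 CPM in METTL3-KO samples, again without overlap (log2 0.54 ± 0.0979, adjusted p = 0.00163). Of its exonic bases, 20.6% overlap TRIM14 on the other strand. CMAS fell, from 51.9, 51 and 44.9 CPM in WT to 32.5, 32.9 and 34.2 CPM in METTL3-KO samples (log2 -0.57 ± 0.0819, adjusted p = 0.000333), so the last step of the route had less transcript while the first had more. NANP, the phosphatase between NANS and CMAS (log2 -0.06 ± 0.0931, adjusted p = 0.692), and SLC35A1, the Golgi transporter of CMP-sialic acid (log2 0.18 ± 0.121, adjusted p = 0.312), did not pass.

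Of the 11 sialyltransferases, 6 were higher, 1 was lower and 4 did not pass, with a median log2 fold change of 0.28. Calls came to 63.6% of this class, where 39.5% of all genes at or above a mean log2 CPM of 1 passed. ST3GAL1, which caps the galactose of O-glycan cores, had the highest CPM of all members, at 740.3, 804.8 and 883 CPM in WT and 1200.1, 1138.8 and 1064.7 CPM in METTL3-KO samples. The groups stood apart although WT replicate 3 and METTL3-KO replicate 3 were the closest samples, and ST3GAL1 was 1.4-fold higher (log2 0.49 ± 0.08, adjusted p = 0.000807). ST3GAL2, which can act on O-glycan cores and on gangliosides, fell from 59.5, 60.9 and 57.3 CPM in WT to 35.1, 35.4 and 35 CPM in METTL3-KO samples (log2 -0.75 ± 0.0719, adjusted p = 1.93e-05). It was the one sialyltransferase that was lower.

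ST3GAL4 and ST3GAL6 cap lactosamine ends and take part in the synthesis of sialyl Lewis antigens. ST3GAL4 was at 117.2, 112.5 and 99.4 CPM in WT and 169.5, 158 and 178.1 CPM in METTL3-KO samples (log2 0.62 ± 0.0825, adjusted p = 0.000195). ST3GAL6 was scarce, at 2.7, 2.39 and 3.28 CPM in WT and 4.74, 5.23 and 4.85 CPM in METTL3-KO samples (log2 0.83 ± 0.152, adjusted p = 0.00175). Both were thus higher in every knockout sample, at very different levels. ST6GALNAC1, which makes the sialyl-Tn antigen by capping the first GalNAc of an O-glycan, was at 7.1, 6.64 and 6.05 CPM in WT and 10.8, 10.1 and 11.2 CPM in METTL3-KO samples, without overlap (log2 0.69 ± 0.11, adjusted p = 0.000631). ST6GALNAC6, at 36, 33.9 and 29.5 CPM in WT and 38.1, 39.5 and 43.3 CPM in METTL3-KO samples, passed narrowly (log2 0.28 ± 0.093, adjusted p = 0.0434). This call was lost without replicate 3 of both groups (log2 0.14, adjusted p = 0.0664), and also without WT replicate 2 and without each METTL3-KO replicate in turn (log2 0.23 to 0.32), and 99.5% of the gene's exonic bases also belong to another annotated gene.

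The other sialyltransferases did not pass. ST6GAL1, which caps N-glycans in a different linkage from the ST3GAL enzymes, had a log2 of -0.18 ± 0.128, and ST6GALNAC4 one of 0.13 ± 0.0978. ST3GAL3 (log2 -0.39 ± 0.163) and ST6GALNAC2 (log2 -0.33 ± 0.196) passed as lower without replicate 3 of both groups, at a log2 of -0.48 and -0.51. ST3GAL3 also passed without METTL3-KO replicate 3 alone (log2 -0.56), and ST6GALNAC2 without WT replicate 3 alone (log2 -0.47). Other annotated genes overlap 86.6% of the exonic bases of ST3GAL3 and 62.1% of those of ST6GALNAC2.

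**Figure D3:**
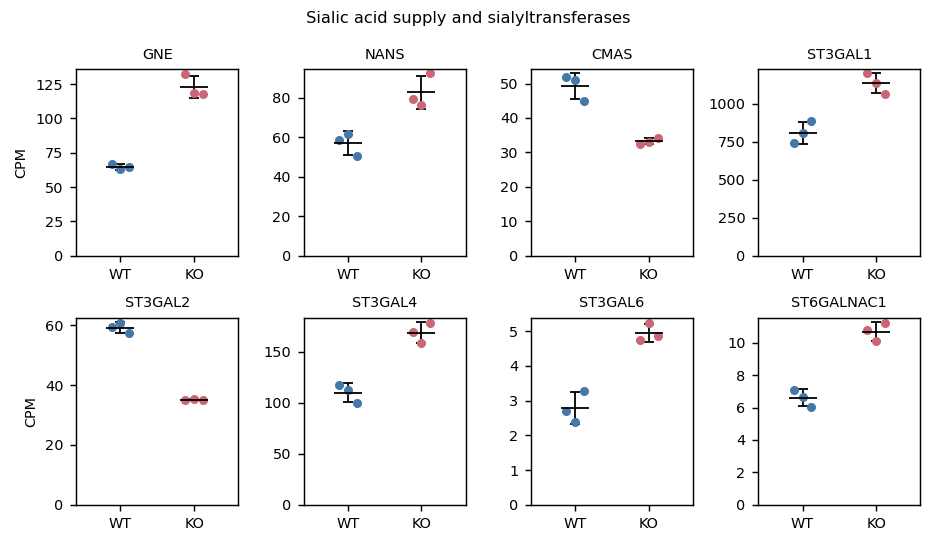
CPM of GNE, NANS, CMAS and 5 sialyltransferases in each sample (points; blue WT, red METTL3-KO, labelled KO), with the mean and SD of 3 samples per group. In each panel the METTL3-KO points lie on 1 side of all WT points, lower for CMAS and ST3GAL2 and higher for the other 6 genes.

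The 3 B3GNT genes of the list were all higher, as were 19.2% of all genes at or above a mean log2 CPM of 1. These enzymes add the GlcNAc of lactosamine, the repeated unit that carries Lewis caps. B3GNT2, the main polylactosamine synthase, was at 31.1, 34.5 and 32.3 CPM in WT and 60.5, 56 and 54.5 CPM in METTL3-KO samples, 1.75-fold higher (log2 0.81 ± 0.0801, adjusted p = 2.58e-05). B3GNT3, which lengthens core 1 O-glycans, was at 37.9, 41.7 and 36.9 CPM in WT and 54.7, 57.7 and 60.5 CPM in METTL3-KO samples (log2 0.57 ± 0.0803, adjusted p = 0.000286). B3GNT5, which starts the lacto-series glycolipids, was at 18.3, 16.9 and 25.1 CPM in WT and 33.5, 34.6 and 30.7 CPM in METTL3-KO samples (log2 0.72 ± 0.13, adjusted p = 0.00156). For B3GNT5 the third replicates lay closest to the other group, still without overlap, and 25.4% of its exonic bases overlap MCF2L2 on the other strand. B3GNT genes outside the list did not pass with all samples. They were B3GNT9 (log2 0.06 ± 0.123) and the scarce B3GNT8 (log2 -0.70 ± 0.344), B3GNT4 (log2 0.41 ± 0.271), B3GNT7 (log2 0.53 ± 0.328) and B3GNT6 (log2 1.38 ± 0.733). B3GNT6, at 1 to 10 counts per sample, passed without replicate 3 of both groups (log2 2.05).

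Of the 9 galactosyltransferases, 4 were higher, 2 lower and 3 did not pass. Calls came to 66.7% of this class, where 39.5% of all genes at or above a mean log2 CPM of 1 passed. B4GALT1, the main N-glycan galactosyltransferase, was at 88.9, 90.6 and 92.7 CPM in WT and 126.3, 132.3 and 130.9 CPM in METTL3-KO samples, with little spread in either group (log2 0.52 ± 0.0675, adjusted p = 0.000169). B4GALT4 was higher by less (log2 0.33 ± 0.0897, adjusted p = 0.0178), and its call was lost without METTL3-KO replicate 2 (log2 0.32) or without METTL3-KO replicate 3 (log2 0.27). B3GALT5, which makes the type 1 chains on which the CA19-9 antigen is built, was at 24.7, 27.4 and 31.9 CPM in WT and 23.8, 22.9 and 18.2 CPM in METTL3-KO samples. Replicate 1 of WT and of METTL3-KO lay close together, and the call (log2 -0.37 ± 0.121, adjusted p = 0.0421) held in only 1 of the 6 fits that left out a sample, the fit without WT replicate 1. Without replicate 3 of both groups B3GALT5 had a log2 of -0.15 (adjusted p = 0.0951).

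The remaining galactosyltransferases B4GALT2 (log2 -0.06 ± 0.0982), B4GALT3 (log2 0.05 ± 0.0896) and B3GALT4 (log2 -0.05 ± 0.158) did not pass. B4GALT2 passed as lower without replicate 3 of both groups (log2 -0.22, adjusted p = 0.000484).

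Glycolipid synthesis genes changed in both directions. UGCG and B4GALT6 were lower, and B4GALT5, ST3GAL5 and A4GALT were higher. UGCG makes glucosylceramide, B4GALT5 and B4GALT6 add galactose to give lactosylceramide, and from there ST3GAL5 leads to gangliosides and A4GALT to globosides. UGCG was at 30.0, 28 and 31.7 CPM in WT and 19.5, 22 and 19.9 CPM in METTL3-KO samples (log2 -0.55 ± 0.0882, adjusted p = 0.000679). B4GALT5 was at 109.2, 109.5 and 124.1 CPM in WT and 213.8, 205.5 and 194.8 CPM in METTL3-KO samples, 1.79-fold higher (log2 0.84 ± 0.0776, adjusted p = 1.52e-05). B4GALT6 moved the other way, with 6.81, 6.46 and 7.64 CPM in WT and 4.61, 4.73 and 4.42 CPM in METTL3-KO samples (log2 -0.60 ± 0.122, adjusted p = 0.00324). Of these paired enzymes B4GALT5 was the more abundant, at 24.2 against 1.49 CPM per kilobase of canonical transcript in WT cells.

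ST3GAL5 had the largest change of the members that passed. It was at 9.83, 11.1 and 9.52 CPM in WT and 22.8, 24 and 26.3 CPM in METTL3-KO samples, 2.4-fold higher (log2 1.26 ± 0.0999, adjusted p = 5.52e-06). A4GALT was at 26.9, 26.6 and 23.1 CPM in WT and 44.3, 43.4 and 45.7 CPM in METTL3-KO samples, 1.74-fold higher (log2 0.80 ± 0.0842, adjusted p = 3.91e-05). Neither group of samples overlapped the other for these branch enzymes. B4GALNT1, no member of the list, extends the gangliosides that ST3GAL5 starts. It had 3.51 ± 0.279 CPM in WT and 2.38 ± 0.212 CPM in METTL3-KO samples (mean ± SD, 3 samples each), and its call (log2 -0.56 ± 0.157, adjusted p = 0.0192) was lost without WT replicate 1, METTL3-KO replicate 1 or METTL3-KO replicate 3. The B4GALNT1 call was also lost with DESeq2 (adjusted p = 0.0513) and with a replicate block in edgeR (adjusted p = 0.0724).

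**Figure D4:**
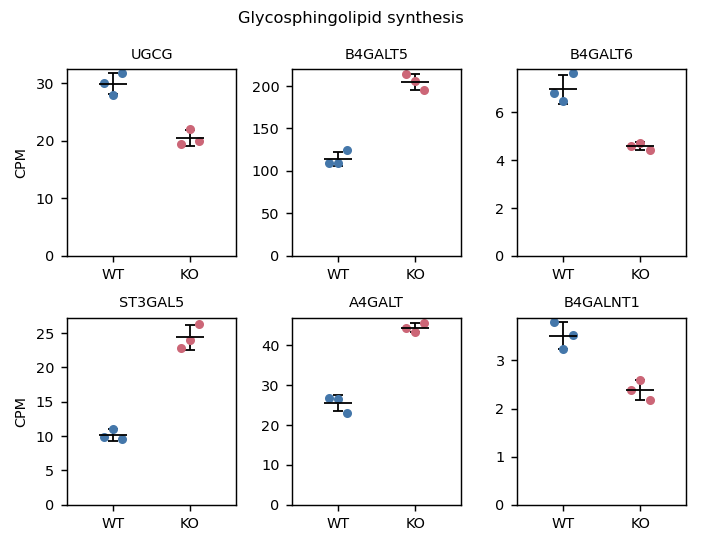
CPM of 6 glycolipid synthesis genes in each sample (points; blue WT, red METTL3-KO, labelled KO), with the mean and SD of 3 samples per group. UGCG, B4GALT6 and B4GALNT1 lie lower, and B4GALT5, ST3GAL5 and A4GALT higher, in all METTL3-KO samples than in any WT sample.

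Among the N-glycan branching enzymes, 2 of 5 tested genes were higher and the others did not pass. MGAT3 adds the bisecting GlcNAc, which hinders further branching. It was at 6.81, 5.97 and 7.17 CPM in WT and 10.8, 11.5 and 10.8 CPM in METTL3-KO samples (log2 0.73 ± 0.109, adjusted p = 0.000444). MGAT5, which adds the branch that polylactosamine prefers and is known for its link to tumour invasion, was at 120.3, 115.1 and 146 CPM in WT and 179.9, 168.9 and 158.6 CPM in METTL3-KO samples (log2 0.41 ± 0.0946, adjusted p = 0.00677). WT replicate 3 came closest to the knockout samples for MGAT5, without overlap. MGAT4B, which adds another branch, was at 311.3, 307 and 273.2 CPM in WT and 270.5, 261 and 288.6 CPM in METTL3-KO samples, with overlap (log2 -0.12 ± 0.076, adjusted p = 0.279). It passed as lower without WT replicate 3 (log2 -0.18) and without replicate 3 of both groups (log2 -0.22). MGAT1, which starts complex N-glycans (log2 0.11 ± 0.0853), and the scarce MGAT4A (log2 -0.17 ± 0.196) did not pass. MGAT2 had 0, 0 and 2 counts in WT and 1, 2 and 1 counts in METTL3-KO samples and was not tested, and an annotated gene on the other strand covers 92.0% of its exonic bases.

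The enzymes that trim N-glycans formed a list of 8 genes, of which 2 were higher and 2 lower. The mannosidase MAN1A1 had 43.7 ± 4.56 CPM in WT and 106.3 ± 3.42 CPM in METTL3-KO samples (mean ± SD, 3 samples each; log2 1.28 ± 0.0858, adjusted p = 1.78e-06). GANAB, the catalytic subunit of glucosidase II, was also higher (log2 0.96 ± 0.0643, adjusted p = 1.78e-06). MAN1B1, another mannosidase, was lower (log2 -0.46 ± 0.0664, adjusted p = 0.000324).

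Among the 10 fucosyltransferases, 3 were higher, 1 was lower and 6 did not pass. FUT1, which makes the H antigen, was at 12.2, 13.4 and 12.6 CPM in WT and 8.03, 7.46 and 9.01 CPM in METTL3-KO samples, without overlap (log2 -0.64 ± 0.107, adjusted p = 0.000889). FUT2, the secretor enzyme, which has the same activity and lies nearby on chromosome 19, was at 21, 21.6 and 21.9 CPM in WT and 23.9, 24.6 and 24.8 CPM in METTL3-KO samples. These values did not overlap either, but the difference was small and did not pass (log2 0.19 ± 0.0789, adjusted p = 0.107), and it passed without replicate 3 of both groups (log2 0.18, adjusted p = 0.045).

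FUT3, the Lewis enzyme, was at 5.32, 7.43 and 6.38 CPM in WT and 11, 11.7 and 11.4 CPM in METTL3-KO samples, 1.79-fold higher (log2 0.84 ± 0.127, adjusted p = 0.000474). It shares 10.3% of its 100-base words with FUT5 and FUT6, so its counts are uncertain where reads fit several of these genes. FUT6 had 4, 2 and 0 counts in WT and 5, 6 and 8 counts in METTL3-KO samples, too few to compare. FUT4, which makes the Lewis x antigen, was at 38.2, 41 and 46.8 CPM in WT and 56.9, 52.2 and 53.6 CPM in METTL3-KO samples (log2 0.37 ± 0.0885, adjusted p = 0.00849). POFUT2, which fucosylates thrombospondin repeats, was at 47.9, 44.7 and 43.8 CPM in WT and 57.9, 58.3 and 59.3 CPM in METTL3-KO samples (log2 0.36 ± 0.0729, adjusted p = 0.00304). Both were higher in every knockout sample. POFUT1, which fucosylates Notch receptors (log2 0.03 ± 0.0703), FUT8, the core fucosylation enzyme of N-glycans (log2 0.26 ± 0.133), FUT10 (log2 0.13 ± 0.13) and FUT11 (log2 -0.003 ± 0.124) did not pass.

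Fucosylation needs GDP-fucose, and HCT116 cells are known from earlier work to carry a deletion within GMDS, the first enzyme of its synthesis from GDP-mannose. GMDS transcript was counted at 101.7, 98.2 and 86.3 CPM in WT and 113.5, 114.2 and 133.6 CPM in METTL3-KO samples (log2 0.34 ± 0.0901, adjusted p = 0.0162). This call was lost without METTL3-KO replicate 3 (adjusted p = 0.0654) and with a replicate block (adjusted p = 0.0954). Without replicate 3 of both groups GMDS had a log2 of 0.18 (adjusted p = 0.00076). TSTA3, which completes the same route, was lower (log2 -0.44 ± 0.0943, adjusted p = 0.00432). Of further genes of fucose supply, FUK was lower (log2 -0.305 ± 0.0888, adjusted p = 0.024) and FPGT did not pass (log2 0.04 ± 0.129). The FUK call held in only 2 of the 6 fits that left out a sample. The Golgi transporter of GDP-fucose, SLC35C1, was higher (log2 0.57 ± 0.08, adjusted p = 0.000273). Gene counts show neither the deletion nor the activity of these enzymes.

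GALNT enzymes place the first GalNAc of mucin-type O-glycans, and of the 9 members 2 were higher, 2 lower and 5 did not pass. The 44.4% called here stands beside 39.5% of all genes at or above a mean log2 CPM of 1. GALNT1 was at 15.8, 15.5 and 15.7 CPM in WT and 23.2, 21.8 and 19.5 CPM in METTL3-KO samples (log2 0.46 ± 0.0925, adjusted p = 0.00308). GALNT12, which is expressed in normal colon, was at 50.4, 49 and 48.3 CPM in WT and 62.2, 66.3 and 63.6 CPM in METTL3-KO samples (log2 0.38 ± 0.0712, adjusted p = 0.00199). GALNT6 was at 14.8, 15.4 and 15.3 CPM in WT and 9.69, 10.5 and 9.95 CPM in METTL3-KO samples (log2 -0.60 ± 0.0922, adjusted p = 0.000537). Members of this family thus changed in opposite directions, each without overlap of the groups. GALNT11 was lower by less (log2 -0.27 ± 0.076, adjusted p = 0.0195), and among the fits that left out a sample its call held only without WT replicate 3. GALNT2 (log2 0.05 ± 0.0755), GALNT3 (log2 0.16 ± 0.0785), GALNT7 (log2 0.05 ± 0.105) and GALNT10 (log2 -0.03 ± 0.0889) did not pass. Without replicate 3 of both groups GALNT3 and GALNT7 passed as higher, at a log2 of 0.25 and 0.24, and GALNT3 did so without WT replicate 3 alone (log2 0.24). GALNT4 had 9 to 24 counts per sample and overlaps POC1B-GALNT4 and an antisense gene over 94.1% of its exonic bases.

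C1GALT1C1 had the largest decrease of all tested members. It encodes COSMC, the chaperone that C1GALT1 needs to add galactose to the first GalNAc. C1GALT1C1 was at 31.7, 33.2 and 28.3 CPM in WT and 13.2, 14.6 and 16.7 CPM in METTL3-KO samples, from 870, 750 and 604 and 398, 320 and 392 counts. The highest knockout sample lay well below the lowest WT sample, a 2.1-fold difference (log2 -1.07 ± 0.105, adjusted p = 2.34e-05). Its client C1GALT1 was at 56.3, 62.7 and 73.8 CPM in WT and 69.5, 70.7 and 64.2 CPM in METTL3-KO samples. These groups overlapped (log2 0.09 ± 0.0978, adjusted p = 0.564), and C1GALT1 passed as higher without WT replicate 3 (log2 0.20) and without replicate 3 of both groups (log2 0.24).

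GCNT3, which branches O-glycans in mucin-secreting epithelium, was at 535.8, 502.7 and 511.8 CPM in WT and 468.5, 451.6 and 444.6 CPM in METTL3-KO samples. All knockout samples were lower, but the difference missed the threshold (log2 -0.18 ± 0.0653, adjusted p = 0.0574) and passed without WT replicate 3 (log2 -0.19) and without replicate 3 of both groups (log2 -0.18). It also passed with filterByExpr, edgeR's own filter on low counts (log2 -0.18), and with a correction for transcript length and GC content (log2 -0.20). GCNT1, which makes the same kind of branch, did not pass (log2 0.27 ± 0.188).

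Mucins are the proteins that carry most O-glycans, and of a list of 12 mucin genes 8 were higher and 1 was lower. Among all tested genes 13.3% were higher and 13.2% lower. The call of MUC20 (log2 0.255 ± 0.0762, adjusted p = 0.0272) held in only 1 of the 6 fits that left out a sample, and was lost with a replicate block. MUC5B had 3.4 ± 0.391 CPM in WT and 19.6 ± 1.83 CPM in METTL3-KO samples (log2 2.53 ± 0.125, adjusted p = 2.61e-07). MUC2, the gel-forming mucin of goblet cells, had 12.8 ± 1.91 CPM in WT and 28.9 ± 4.47 CPM in METTL3-KO samples (log2 1.18 ± 0.134, adjusted p = 6.51e-05). MUC5AC, a gel-forming mucin typical of stomach and airway, had 189.0 ± 2.74 CPM in WT and 273.0 ± 7.19 CPM in METTL3-KO samples (log2 0.53 ± 0.0653, adjusted p = 0.000114). These are means ± SD of 3 samples each, and MUC3A was the mucin that was lower (log2 -0.59 ± 0.0833). Of the 8 epithelial markers, KRT19 (log2 0.82 ± 0.103) and VIL1 (log2 0.62 ± 0.0658) were higher in every fit that left out a sample, while the calls of KRT8 (log2 0.36 ± 0.0947) and CDH1 (log2 0.24 ± 0.0763) held in 4 and 2 of these 6 fits. EPCAM (log2 0.01 ± 0.0768), KRT18 (log2 0.18 ± 0.107), CDX1 (log2 0.35 ± 0.178) and CDX2 (log2 -0.19 ± 0.17) did not pass, and CDX2 passed as lower without replicate 3 of both groups (log2 -0.45, adjusted p = 0.00152). The part of these markers in the results was not tested.

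Levels of different genes were compared in WT cells as CPM per kilobase of canonical transcript. MGAT4B (125.6), ST3GAL1 (120.5) and GCNT3 (104.7) led the members, followed by ST3GAL4 (60.6) and NANS (48.3). MGAT4B and ST3GAL1 lay closer together than the WT replicates of either gene, so their order is not settled. In METTL3-KO cells ST3GAL1 led with 169.0 CPM per kilobase, and MGAT4B followed with 115.6. At the low end ST3GAL6, GCNT1, MGAT4A, GALNT4 and FUT6 were all under 1 CPM per kilobase in WT cells, from 0.872 down to 0.0235.

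The other lists of neighbouring genes moved in both directions. Of 21 genes that supply nucleotide sugars, 6 were higher and 4 lower, together 47.6%. Calls came to 26.5% of all tested genes and to 39.5% of those at or above a mean log2 CPM of 1. UAP1, which makes the UDP-GlcNAc that B3GNT and MGAT enzymes use, was higher (log2 0.74 ± 0.0836, adjusted p = 6.47e-05), and so was SLC35A2, the UDP-galactose transporter (log2 0.60 ± 0.0739, adjusted p = 0.000113). Of 43 further transferases, 24 were tested, with 3 higher and 1 lower, together 16.7%. GALNT5 had 2.53 ± 0.28 CPM in WT and 7.45 ± 0.605 CPM in METTL3-KO samples (mean ± SD, 3 samples each; log2 1.56 ± 0.141, adjusted p = 1.31e-05). GALNT8 had 10, 5 and 8 counts in WT and 69, 35 and 27 counts in METTL3-KO samples (adjusted p = 0.000445), and B4GALNT2 had 2, 2 and 0 and 9, 6 and 12 counts (adjusted p = 0.0176), which is little to compare, and the B4GALNT2 call was lost without METTL3-KO replicate 3. Of 9 enzymes that remove sugars, FUCA1 (log2 -0.46 ± 0.0848) and HEXA (log2 -0.49 ± 0.115) were lower and FUCA2 (log2 0.30 ± 0.0856) was higher. The FUCA2 call was lost without METTL3-KO replicate 1 or 3. These calls were 37.5% of the 8 tested enzymes of this list.

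Most of the 31 calls held under every other way of processing that was tried. In all 14 alternatives, which changed the tool, scaling, filter, samples, replicate block or length and GC correction, 19 members again passed as higher and 7 as lower, the latter FUT1, ST3GAL2, B4GALT6, GALNT6, C1GALT1C1, UGCG and CMAS. The calls of FUT4, ST6GALNAC6, B3GALT5, B4GALT4 and GALNT11 were lost in at least 1 alternative.

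**Figure D5:**
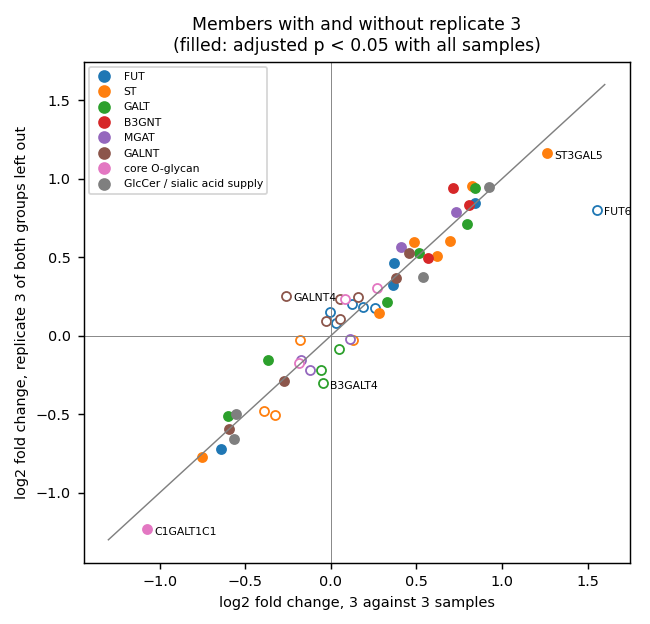
Log2 fold change of each tested member with all 6 samples (horizontal axis) and without replicate 3 of both groups (vertical axis), coloured by class and filled where the adjusted p with all samples was under 0.05, with the line of equal values. Among filled points, C1GALT1C1 (-1.07 and -1.23) and ST3GAL5 (1.26 and 1.16) lie at the ends, near the line. The open points of FUT6 (1.555 and 0.804), GALNT4 and B3GALT4 lie farther from it.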

How the data were processed

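Per the labels and the study's methods, the authors aligned paired-end TruSeq reads to hg19 with TopHat (TopHat2 2.0.11 in the submitters' processing notes) and an Ensembl GRCh37 transcript index, then assigned read pairs to genes by htseq-count in union mode. The strand setting is not given in the sources used here. Each deposited table holds 1 sample's raw counts by gene symbol, unpooled, with 20936091 to 30142144 counts on genes. Counters of unassigned reads were left out of library sizes, and read pairs ambiguous between genes came to 7.95% to 8.77% of all tabulated counts, counters included. The tables' names mark the groups as NC and SiM3 and number the WT samples differently, and the labels were followed.

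As in the study, a gene needed at least 5 total counts in a condition, which left 22452 and removed 34186. METTL3-KO was compared with WT, two-sided, by edgeR's quasi-likelihood test (edgeR 4.0.16, R 4.3.3) with TMM scaling and Benjamini-Hochberg adjustment across these genes. The SE is the size of the log2 fold change over the square root of F. Positions, lengths, overlaps and shared 100-base words came from GENCODE on GRCh37, which may hold genes that the authors' annotation lacked. Members, classes and lists were chosen with earlier results of these data known. The rule named METTL3, GMDS, every member, and up to 3 genes per neighbour list with the smallest adjusted p. B4GALNT1, NANP, SLC35A1, TSTA3, FUK, FPGT, MUC3A, MUC20, B3GNT4, B3GNT6, B3GNT7, B3GNT8, B3GNT9 and the markers were named after their values were seen. Alternatives were DESeq2 1.42.0, RLE scaling, filterByExpr, no filter beyond 1 count, a replicate block, a correction for transcript length and GC content (splines, 5 degrees of freedom), both together, and leaving out each sample or replicate 3 of both groups. The fit was tested on simulated counts with a fixed dispersion. These had neither the shift of replicate 3 nor the length trends, so that test does not bear on them.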

Additional observations from a re-analysis of the deposited data

How the results depend on the processing

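Of all tested genes, 2959 were lower and 2986 higher with all samples, 4823 and 4555 without replicate 3 of both groups, and 1976 to 3793 and 2188 to 3809 over the 6 fits that left out a sample. Deviations of same-numbered WT and METTL3-KO samples correlated at -0.586, -0.390 and -0.784, so the numbers do not pair the samples, and a fit with a replicate block called 1719 lower and 1810 higher, losing FUT4, ST6GALNAC6, B3GALT5, B4GALT4 and GALNT11. The members' median log2 fold change (0.131) was 0.162 with the length and GC correction, with or without the block, 0.205 without replicate 3 of both groups, and 0.126 to 0.196 over the fits leaving out a sample. Without replicate 3 of both groups the class medians were 0.144 (sialyltransferases), -0.087 (galactosyltransferases), 0.834 (B3GNT), -0.022 (MGAT), 0.236 (GALNT) and 0.03 (O-glycan cores), so those of the galactosyltransferases, MGAT and O-glycan cores changed sign. The fucosyltransferase median was 0.191 with filterByExpr, and the MGAT median 0.267 with no filter beyond 1 count, which adds MGAT2. Leaving out a sample, the fucosyltransferase median ran from 0.199 to 0.273, the B3GNT median from 0.634 to 0.804, the galactosyltransferase median from -0.017 to 0.107, the GALNT median from -0.016 to 0.09 and the O-glycan core median from -0.078 to 0.006. Signs also changed for members that did not pass. FUT11 was at 0.008 with DESeq2 and with RLE, 0.004 with filterByExpr, 0.005 with no filter beyond 1 count, 0.01 with the correction and 0.0 with correction and block, and POFUT1 at -0.0 with the correction and -0.001 with correction and block. Without replicate 3 of both groups FUT11 was at 0.153, ST6GALNAC4 at -0.025, B4GALT3 at -0.087, MGAT1 at -0.022, GALNT4 at 0.255 and GALNT10 at 0.093. Leaving out a sample gave FUT11 -0.157 to 0.108, POFUT1 -0.004 to 0.058, B3GALT4 -0.186 to 0.054, B4GALT2 -0.145 to 0.022, B4GALT3 -0.017 to 0.107, GALNT4 -0.633 to 0.014, GALNT7 -0.016 to 0.182, GALNT10 -0.081 to 0.046 and C1GALT1 -0.0 to 0.2. The length and GC correction alone also gave calls for ST6GALNAC4 (0.162), MGAT4B (-0.13), GALNT3 (0.197) and GCNT3 (-0.203), and for GCNT3 so did correction with block (-0.201) and filterByExpr (-0.179). The calls of KRT8, CDH1, GMDS, FUK, HEXA, FUCA2, B4GALNT1 and B4GALNT2 were lost with the block. That of B4GALNT2 was also lost without replicate 3 of both groups (adjusted p = 0.0766). The causes were not tested. The DESeq2 fit called the same members as edgeR's. FUT6, GALNT4 and MGAT2 had at most 24 counts in any sample, which limits their precision, and for GALNT4 and MGAT2 depth and reads left out where other genes overlap cannot be told apart.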
